A study of Mus musculus with 12 samples.

Results

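Liver RNA levels of the secreted coagulation and complement proteins were examined across genotype and diet. The members are a list of 39 genes that hepatocytes are known to express and secrete as plasma proteins, matched by gene symbol to the Ensembl identifiers of the deposited table. Of these, 38 were found among the 16346 genes of the table, 20 of 21 coagulation and fibrinolysis genes and all 18 complement genes, and Klkb1 was not analysed here. All 38 passed the filter for testing, a mean normalized count of at least 10 over the libraries, which left 12366 genes in all. The rule uses no measured value.

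Coagulation is a chain of plasma proteases, made as inactive precursors in the liver, that ends in thrombin cutting fibrinogen to fibrin, while antithrombin, protein C and protein S restrain it and plasmin dissolves the clot. Complement is a second protease chain, started by antibody complexes, by mannose-binding lectins on sugars of microbes or by spontaneous turnover of C3, and it ends in a pore of C5 to C9 in the target membrane. Hepatocytes are the main source of most of these proteins, and several are acute-phase proteins whose synthesis rises in inflammation.

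The study asked how the liver responds to sucrose and fructose with and without MED13, the subunit that joins the kinase module to the Mediator complex. All mice were of strain C57BL6J, 12 weeks old, and carried floxed Med13 alleles. The control mice are given as Med13 fl/fl with no Cre named, and in MED13-LKO mice an albumin promoter drives Cre, so that recombination is directed to hepatocytes and other liver cells keep the gene. Mice were fasted overnight for 16 h, or were refed for 4 h with normal chow and water holding 30% sucrose or 30% fructose. Each of the 6 groups had 2 mice, and each mouse gave 1 liver library, which makes 12 libraries. No library from mice refed with plain water was analysed here, so the effects of food and of the sugar cannot be told apart.

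The values are the authors' normalized counts and carry no read depth, so their precision is known only from the spread between libraries. Their sums ran from 21062211 to 24152885 in the 6 control libraries and from 17309215 to 18738563 in the 6 libraries labelled MED13-LKO, with no overlap. For this reason the members' differences averaged over the diets are given on the deposited scale first and, for the counts and the members described at length, also after all libraries were scaled to equal sums. On that scale the median gene tested was 0.32 higher in the libraries labelled MED13-LKO, against 0.01 on the deposited scale (log2), and neither scale is known to be the right one. The albumin transcript alone held 7.97% to 10.4% of the control sums and 7.90% to 9.05% of the others. In control mice the normalized count of Med13 was 674 and 796 when fasted, 578 and 673 after sucrose, and 607 and 778 after fructose. In libraries labelled MED13-LKO Med13 stood at 808 and 899, 646 and 717, and 681 and 1055 in that order. Med13 RNA was therefore not lower (log2 fold change 0.22, SE 0.115, limma adjusted p = 0.201). The value sums over the whole gene, and a deleted exon cannot be seen in it. The genotype is for this reason given throughout as the label of the library.

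Most members were lower in the libraries labelled MED13-LKO. Averaged over the diets, 28 of the 38 fell and 2 rose (limma on log2 of the normalized count plus 1, Benjamini-Hochberg adjusted p under 0.05), where 13.2% of all genes tested fell and 12.1% rose. The median member differed by −0.29 (log2), against 0.01 for all genes tested. The median was alike in both systems. Of 20 coagulation genes 15 fell and 2 rose, with a median of −0.29, and of 18 complement genes 13 fell and none rose, with a median of −0.30. With equal sums 9 members fell and 10 rose, with a median of 0.03, where 3.28% of all genes fell and 57.5% rose. The median member thus lay 0.30 below the median gene on the deposited scale and 0.29 below it with equal sums. Scaling a library moves all its genes by nearly the same log2 amount, so this gap could not change and is no separate evidence. The absolute direction of the members depended on the scale. Of the members, 10 share at least 10% of their 31-base subsequences with another gene, so that reads may have been divided between copies, and of the 28 others 19 fell and 2 rose. In total the 38 genes held 3.05% to 3.48% of the normalized counts of control libraries and 2.96% to 3.30% of those labelled MED13-LKO, and these ranges overlap.

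**Figure D1:**
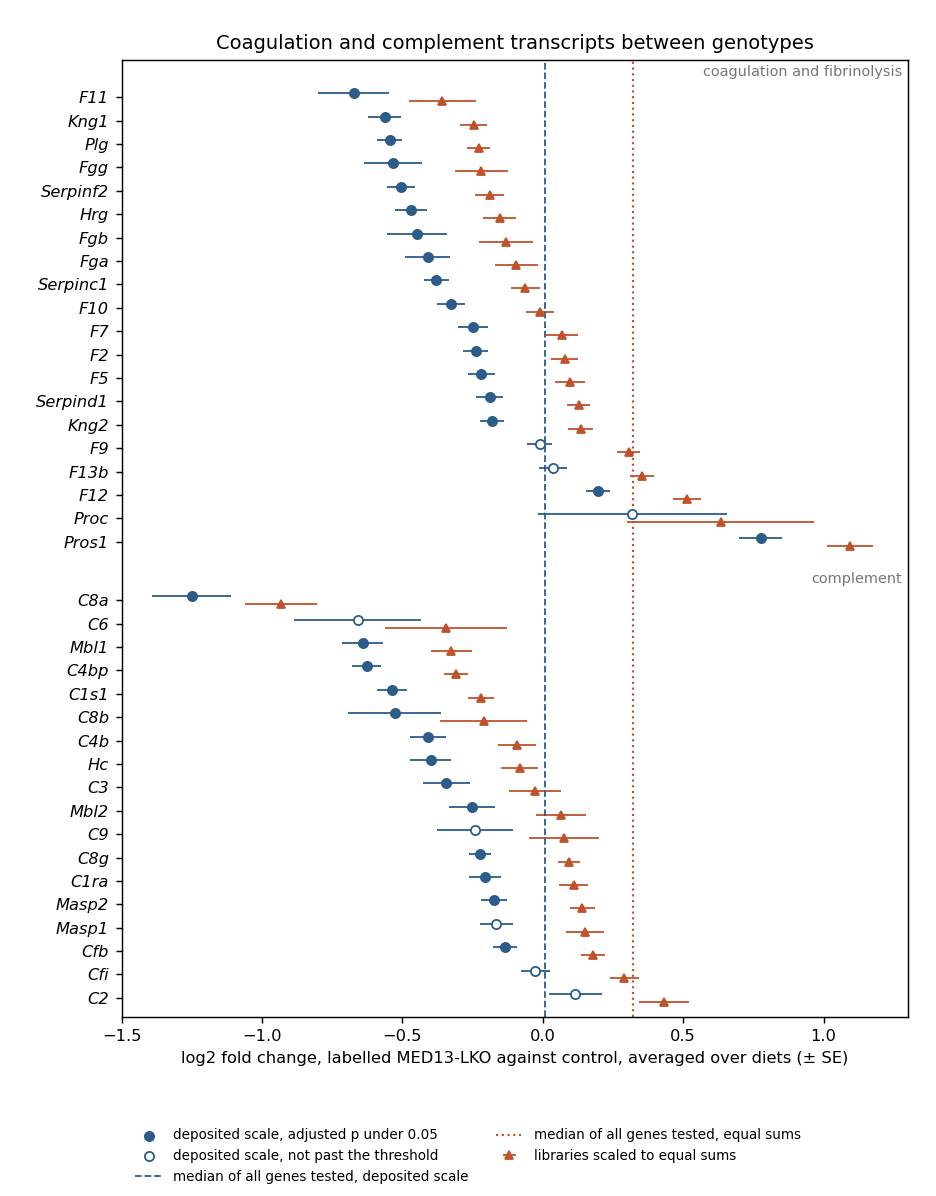
Each row is a member, and the horizontal axis is the log2 fold change between libraries labelled MED13-LKO and control libraries, averaged over the 3 diets, with its standard error (6 libraries against 6). Blue circles are on the deposited scale, filled where the limma adjusted p is under 0.05, and red triangles are after scaling to equal sums. The dashed and dotted lines are the medians of all 12366 genes on the same scales, and most members lie left of the line of their own scale.

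In 16 members every library labelled MED13-LKO lay below every control library, where 4.93% of all genes tested did so. They were Kng1, C4bp, Serpinc1, Hc, F2, Fga, Masp2, C8b, F7, F10, Fgg, C8a, Mbl1, Serpinf2, C1s1 and Plg. Pros1 was the single member with every such library above, where 3.92% of all genes were. After scaling to equal sums 3 members kept all libraries labelled MED13-LKO below control, Kng1, C4bp and C8a, where 1.04% of all genes did, and 5 members had them all above control, F12, Pros1, F13b, F9 and Cfi, where 20.9% of all genes did.

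Between the members, levels per kb of the longest transcript spanned from 97 to 26877 normalized counts per kb (mean of all libraries). C3, the central component of complement, had the highest mean with 26877 per kb. Of the fibrinogen chains Fga had 21925, Fgg 21668 and Fgb 14763, and prothrombin (F2) had 15821. Kng1, which encodes the precursor of bradykinin, had 18222 and plasminogen (Plg) 13292. The ranges over single libraries of C3 (19860 to 33828), Fga (16202 to 30049) and Fgg (14734 to 32931) overlapped, so their order is not resolved. At the low end stood Masp1 with 381, Mbl1 with 374, F11 with 371 and protein C (Proc) with 97 normalized counts per kb.

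Of the proteases and cofactors that lead to thrombin, F11 differed most. It encodes factor XI, which activates factor IX. Its normalized counts in control mice were 1242 and 1261 when fasted, 786 and 954 after sucrose, and 1106 and 793 after fructose. Libraries labelled MED13-LKO had 851 and 543, 565 and 651, and 543 and 673. The ranges overlapped only through the value of 851, and F11 fell by 0.67 (log2, SE 0.127, limma adjusted p = 0.00406). It stayed lower with equal sums (−0.36, adjusted p = 0.0243). Prothrombin, factor X (F10), factor VII (F7) and the cofactor factor V (F5) fell by 0.24, 0.33, 0.25 and 0.22, each with an adjusted p under 0.01, and with equal sums none of these 4 passed the test, with values of 0.08, −0.01, 0.07 and 0.10. F9 (factor IX, −0.01) and F13b (the carrier subunit of factor XIII, 0.04) did not pass the test on the deposited scale.

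F12 encodes factor XII, the surface-activated protease that starts the contact pathway, and it moved against the others. Its normalized counts in control mice were 7751 and 8053 when fasted, 7313 and 6681 after sucrose, and 7103 and 7483 after fructose. The libraries labelled MED13-LKO had 9327 and 9761, 8343 and 8026, and 7868 and 7655. Within each diet they lay above control, but the ranges over all diets overlapped. F12 rose by 0.20 (log2, SE 0.042, limma adjusted p = 0.0078), and by 0.51 with equal sums.

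The other members of the contact pathway went down. Kng1 encodes high molecular weight kininogen, the carrier of prekallikrein and factor XI. Control mice had Kng1 values of 54923 and 54945 when fasted, 46065 and 46281 after sucrose, and 50607 and 41564 after fructose. The libraries labelled MED13-LKO had 36418 and 36529, 29776 and 32582, and 31325 and 32085, all below the lowest control library. Kng1 fell by 0.56 (log2, SE 0.058, limma adjusted p = 0.000119) and stayed lower with equal sums (−0.25, adjusted p = 0.00211). Its neighbour and close copy Kng2 fell by 0.18 (adjusted p = 0.0143) and rose by 0.14 with equal sums. The 2 genes lie 28.4 kb apart on chromosome 16, and since 26.5% of the 31-base subsequences of Kng1 and 30.6% of those of Kng2 also occur in another gene, chiefly in each other, reads may have been divided between them.

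Fibrinogen is built from 3 chains, and their genes stand side by side on chromosome 3, Fgg and Fga 11 kb apart and Fga and Fgb 6.51 kb apart. Fgg had normalized counts in control mice of 48835 and 47021 when fasted, 41114 and 38590 after sucrose, and 57333 and 35827 after fructose. In libraries labelled MED13-LKO Fgg stood at 35038 and 31489, 30151 and 32488, and 25651 and 29143, without overlap over all 12 libraries. Fga values of control mice were 75784 and 65295, 57324 and 55434, and 77737 and 57701. Those labelled MED13-LKO had 55406 and 51048, 47723 and 49695, and 41915 and 45581 for Fga, again without overlap, although the nearest pair differed by little. For Fgb, control mice had 72497 and 70336, 61681 and 54953, and 80192 and 50513. The others had 56269 and 54120, 42812 and 49284, and 38594 and 43728, so that Fgb overlapped. Fgg fell by 0.54, Fgb by 0.45 and Fga by 0.41 (log2, SE 0.103, 0.106 and 0.080, limma adjusted p = 0.00465, 0.012 and 0.00486). With equal sums the differences were −0.22, −0.13 and −0.09, and none passed the test (adjusted p = 0.0667, 0.252 and 0.293). In each chain the first control fructose library was the highest of all 12, and the second was the lowest control library for Fgb and Fgg.

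The promoters of the chains differ in the short motifs they hold. The 250 bases before the RefSeq start (GRCm38.p6) were searched on both strands for TTGCNNAA, the core bound by C/EBP proteins, and TTCNNNGAA, the core bound by STAT proteins, which reads the same on either strand. No match to one overlapped a match to the other in the windows shown. The windows of Fgb, on the minus strand at chr3:83049864-83050113, and of Fgg, on the plus strand at chr3:83007474-83007723, are shown 5′ to 3′, with matches in capitals. They were chosen because these genes lie on either side of Fga and moved alike.
Fgb: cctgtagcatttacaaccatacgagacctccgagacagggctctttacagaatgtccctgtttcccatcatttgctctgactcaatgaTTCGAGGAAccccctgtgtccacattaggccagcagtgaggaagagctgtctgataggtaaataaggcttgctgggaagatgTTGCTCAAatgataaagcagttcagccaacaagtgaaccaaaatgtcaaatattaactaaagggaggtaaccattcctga
Fgg: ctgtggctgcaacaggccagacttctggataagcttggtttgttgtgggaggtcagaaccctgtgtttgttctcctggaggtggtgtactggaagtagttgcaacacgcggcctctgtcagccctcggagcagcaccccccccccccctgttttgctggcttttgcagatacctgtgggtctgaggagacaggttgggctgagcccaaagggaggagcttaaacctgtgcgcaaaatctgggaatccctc
In Fgb the match to TTGCNNAA lies 80 to 73 bases and that to TTCNNNGAA 162 to 154 bases before the start. Fga, in its own window, held TTGCNNAA 135 to 128 bases before its start, on the opposite strand, and TTCNNNGAA 234 to 226 bases before it. Fgg held neither. Windows were given for 30 of the 38 members. TTGCNNAA was found in 9 of these (30%) and in 9.55% of all 27025 promoters. The STAT core TTCNNNGAA was found in 6 members (20%, against 7.18%), the glucocorticoid receptor core TGTTCT in 8 (26.7%, against 16.2%) and the HNF4 core CAAAGTCCA in none (against 0.381%). A match says only that the letters are present.

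Among the brakes of coagulation, protein S went the opposite way. Pros1 encodes protein S, the cofactor with which activated protein C inactivates factors V and VIII. Its normalized counts in control mice were 1848 and 1472 when fasted, 1283 and 1158 after sucrose, and 1647 and 1301 after fructose. The libraries labelled MED13-LKO had 2531 and 2805, 2328 and 2193, and 2494 and 2425, and the lowest of these was above the highest control library. Pros1 rose by 0.78 (log2, SE 0.077, 1.71-fold, limma adjusted p = 9.2e-05), and by 1.09 with equal sums (adjusted p = 1.13e-05). It passed the test within each diet, with 0.69 fasted, 0.89 with sucrose and 0.75 with fructose. Its upstream window, on the plus strand at chr16:62854057-62854306, is shown because Pros1 rose in every diet, and it held TTCNNNGAA, in capitals, 92 to 84 bases before the start and no TTGCNNAA.
Pros1: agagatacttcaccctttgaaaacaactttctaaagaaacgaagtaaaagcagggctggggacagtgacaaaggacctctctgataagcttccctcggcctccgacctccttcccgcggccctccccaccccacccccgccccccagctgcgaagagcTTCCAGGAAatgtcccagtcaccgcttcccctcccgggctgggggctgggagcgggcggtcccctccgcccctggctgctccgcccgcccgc
Antithrombin (Serpinc1), the main inhibitor of thrombin and factor X, fell by 0.38 (SE 0.045, adjusted p = 0.000277). It ranged from 10353 to 12447 in control libraries and from 8373 to 9526 in the others, without overlap, and other genes, chiefly Zbtb37, hold 35.6% of its subsequences. With equal sums Serpinc1 differed by −0.06 and did not pass the test. Heparin cofactor II (Serpind1) fell by 0.19 and rose by 0.13 with equal sums. Protein C itself, whose activated form protein S assists, was too sparse to place. Proc values ranged from 60 to 217 in control and from 104 to 236 in the other libraries, with a difference of 0.32 (SE 0.337, adjusted p = 0.535).

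The members tied to fibrinolysis, Plg, Serpinf2 and Hrg, all fell. Of further genes outside the member list, Cpb2 (−0.108, limma adjusted p = 0.248) and Plau (0.001, adjusted p = 0.998) did not pass the test. Plasminogen is the precursor of plasmin. Plg values of control mice were 48052 and 50486 when fasted, 39797 and 40345 after sucrose, and 41320 and 40636 after fructose. Those of libraries labelled MED13-LKO were 35460 and 34062, 27580 and 29868, and 26279 and 25867. All 6 were below the lowest control library, and Plg fell by 0.55 (log2, SE 0.045, limma adjusted p = 2.96e-05) and stayed lower with equal sums (−0.23, adjusted p = 0.00124). Serpinf2 encodes antiplasmin, the inhibitor of plasmin. Its normalized counts were 11178 and 11635, 9111 and 8977, and 9186 and 9528 in control mice. The values were 8095 and 6871, 6646 and 7175, and 6594 and 6489 in libraries labelled MED13-LKO, again without overlap. Serpinf2 fell by 0.51 (SE 0.050, adjusted p = 8.7e-05, −0.19 with equal sums), so that the enzyme precursor and its inhibitor fell to a similar degree. Hrg, a histidine-rich plasma protein that binds plasminogen and heparin, had 19988 and 20742, 18552 and 16850, and 18115 and 19179 in control mice. It had 17611 and 15012, 12597 and 13309, and 12568 and 11461 in the libraries labelled MED13-LKO, where 1 fasted library reached into the control range. Hrg fell by 0.47 (SE 0.056, adjusted p = 0.000291), and by 0.15 with equal sums (adjusted p = 0.0448).

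In complement the first steps fell in part. C1s1 encodes C1s, the protease of the classical pathway that cuts C4 and C2. Control libraries held 9894 and 10923 when fasted, 10639 and 10657 after sucrose, and 9969 and 9976 after fructose for C1s1. Those labelled MED13-LKO held 7626 and 6888, 6390 and 7370, and 7161 and 7381, well apart from control. C1s1 fell by 0.54 (log2, SE 0.052, limma adjusted p = 7.48e-05), and stayed lower with equal sums (−0.22, adjusted p = 0.00313). Other genes, chiefly C1s2, hold 47.6% of its 31-base subsequences, so the reads of these copies cannot be fully separated. Its partner C1ra fell by 0.21, and other genes, chiefly C1rb, hold 59.6% of the subsequences of C1ra. Mbl1, a mannose-binding lectin, had 711 and 626 when fasted, 634 and 762 after sucrose, and 765 and 779 after fructose in control mice. Libraries labelled MED13-LKO had 437 and 363, 495 and 527, and 451 and 472 for Mbl1, without overlap. Mbl1 fell by 0.64 (SE 0.072, adjusted p = 0.000205) and stayed lower with equal sums (−0.33, adjusted p = 0.0039). The other lectin, Mbl2, and its protease Masp2 fell by 0.25 and 0.18 and differed by 0.06 and 0.14 with equal sums. Other genes, chiefly Tardbp, hold 53.3% of the subsequences of Masp2. Masp1 did not pass the test (−0.17, adjusted p = 0.0651). It differed by −0.21 without the first fasted library labelled MED13-LKO and by −0.20 without the second control sucrose library. Each of these fits leaves 1 library in a group.

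C3 stood at 165931 and 155017 in fasted control mice, 150056 and 148016 with sucrose, and 132939 and 173743 with fructose. The libraries labelled MED13-LKO had 132953 and 141503, 119822 and 102001, and 123833 and 110658. The lowest control value, from the first fructose library, lay within the range of the others. C3 fell by 0.34 (log2, SE 0.084, limma adjusted p = 0.014), and with equal sums its difference was −0.03 (adjusted p = 0.802). C4b, cut by C1s to found the classical convertase, fell by 0.41, and with equal sums it did not pass the test (−0.09, adjusted p = 0.261). Other genes, chiefly C4a, hold 48.3% of its subsequences. C2, its partner in that enzyme, did not pass the test (0.12, adjusted p = 0.414) and rose by 0.43 with equal sums. Factor B (Cfb), the alternative pathway's counterpart of C2, fell by 0.14 and rose by 0.18 with equal sums. Cfb and C2 are 85 bases apart, and 75.5% and 44.4% of their 31-base subsequences occur in other genes, chiefly a read-through model that spans both. Factor I (Cfi), which cuts C3b and C4b, did not pass the test (−0.03).

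C4bp, the cofactor with which factor I inactivates C4b, was among the clearest differences. Control mice had C4bp values of 11448 and 12613 when fasted, 12453 and 13626 after sucrose, and 13349 and 11974 after fructose. Libraries labelled MED13-LKO had 8157 and 7674, 8542 and 8733, and 7574 and 8164. No library crossed between the genotypes, and C4bp fell by 0.63 (log2, SE 0.051, limma adjusted p = 2.6e-05). It stayed lower with equal sums (−0.31, adjusted p = 0.000328).

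The largest difference of all members was in C8a, which encodes the alpha chain of C8, a subunit of the membrane pore. The gene lies on the minus strand at chr4:104815679-104876398 (GENCODE M21, GRCm38) and shares no 31-base subsequence with another gene. Control mice had C8a values of 10026 and 11938 when fasted, 8815 and 11082 after sucrose, and 17964 and 9964 after fructose. Libraries labelled MED13-LKO had 4835 and 5732, 4494 and 4283, and 4071 and 5331. The highest of these was far below the lowest control library, and C8a fell by 1.25 (log2, SE 0.141, 0.421-fold, limma adjusted p = 0.000205). It passed the test within each diet, with −1.05 fasted, −1.17 with sucrose and −1.52 with fructose. In fasted mice and with sucrose the call was lost without any 1 of the 4 libraries compared, which leaves 1 library in a group. When the libraries of a diet were fitted alone, C8a passed in fasted mice and with sucrose but not with fructose. Averaged over diets it also passed with equal sums (−0.93, adjusted p = 0.000316). The other chains of C8 differed less. C8b lies 11.1 kb from C8a on chromosome 4. Its normalized counts were 5483 and 6356, 5296 and 5507, and 10617 and 4672 in control mice and 4139 and 4433, 4292 and 4291, and 3620 and 4592 in the others. The genotypes came close but did not overlap, and C8b fell by 0.53 (SE 0.166, adjusted p = 0.0419). C8g, which encodes the gamma chain from another chromosome, fell by 0.22 (SE 0.040, adjusted p = 0.00314). The estimates for the chains of 1 protein were thus unlike, with C8a furthest from 0. The chains were not compared by a test, so the gap between C8b and C8g is not resolved. Under equal sums the values were −0.93 for C8a, −0.21 for C8b and 0.09 for C8g, and the scaling leaves the gaps between chains unchanged. C5 (Hc) fell by 0.40 without overlap on the deposited scale, and with equal sums its libraries overlapped and it did not pass the test (−0.08, adjusted p = 0.294).

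The windows of the neighbours C8a, on the minus strand at chr4:104876399-104876648, and C8b, on the plus strand at chr4:104766067-104766316, are shown because these neighbours encode chains of 1 protein. C8a held TTCNNNGAA, in capitals, 228 to 220 bases before its start, C8b did not, and neither held TTGCNNAA.
C8a: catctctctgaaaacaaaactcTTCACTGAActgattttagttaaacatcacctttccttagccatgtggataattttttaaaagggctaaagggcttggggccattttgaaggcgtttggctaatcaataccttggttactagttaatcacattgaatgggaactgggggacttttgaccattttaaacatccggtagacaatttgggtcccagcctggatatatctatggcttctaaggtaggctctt
C8b: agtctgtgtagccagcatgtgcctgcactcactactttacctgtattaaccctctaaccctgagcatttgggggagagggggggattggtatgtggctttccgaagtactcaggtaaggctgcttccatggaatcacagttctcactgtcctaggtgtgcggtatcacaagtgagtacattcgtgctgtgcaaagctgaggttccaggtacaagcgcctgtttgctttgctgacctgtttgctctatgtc

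**Figure D2:**
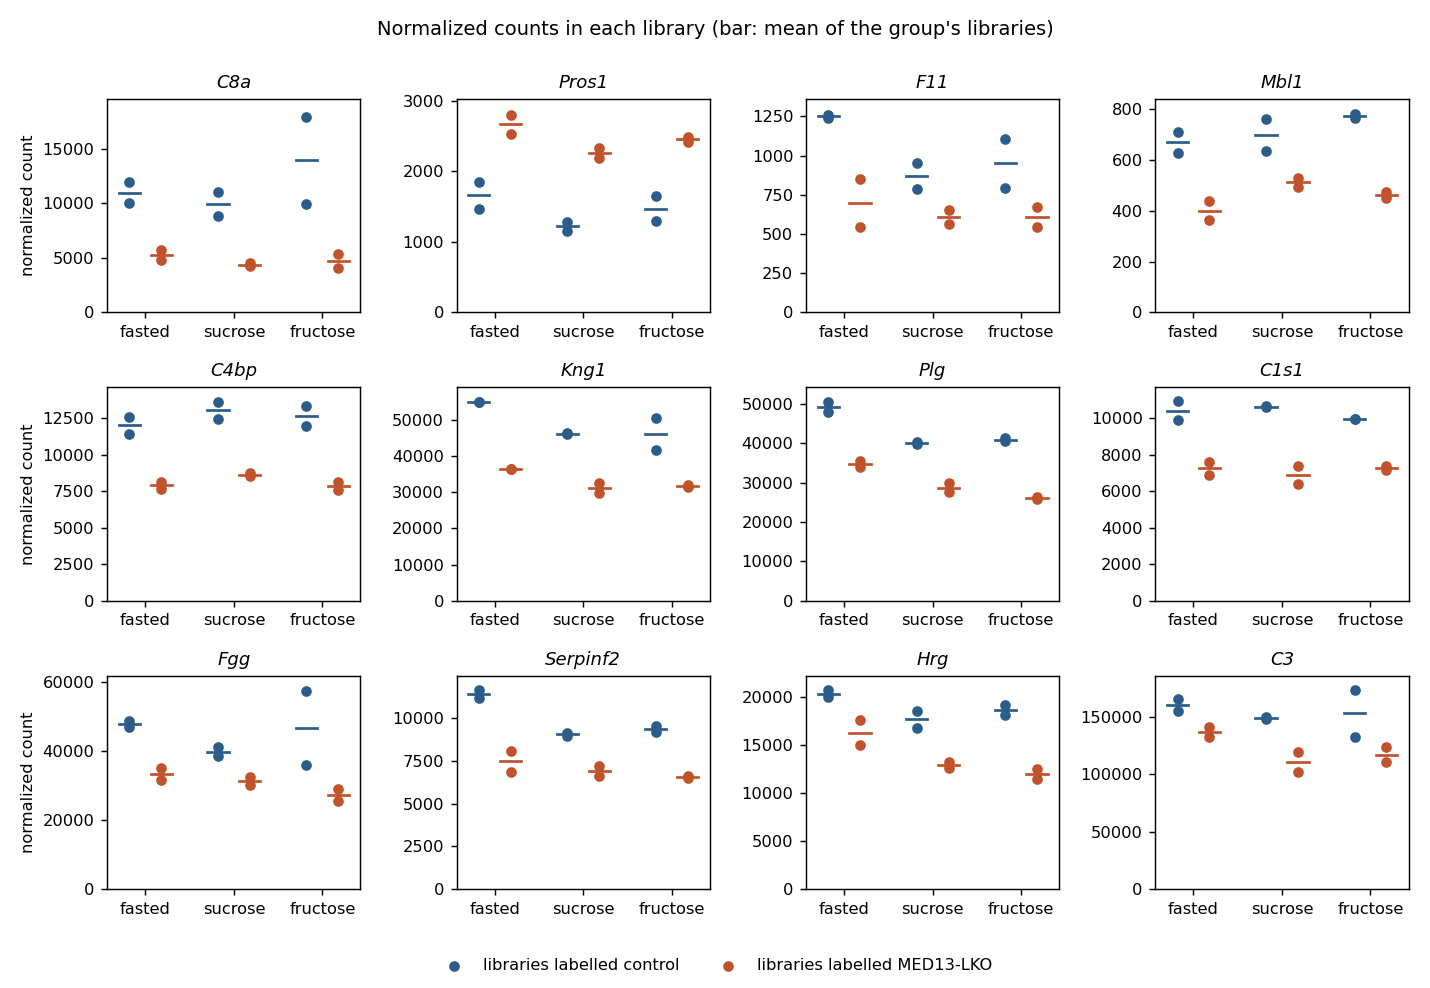
Each panel is a member with the normalized count on a linear axis from 0, by diet. Blue points are control libraries, red points are libraries labelled MED13-LKO (2 in each group), and bars are means of the group. C8a, C4bp, Kng1, Plg, C1s1 and Mbl1 are lower in every red library than in any blue one, and Pros1 is higher.

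C6 and C9, named here after their values were seen, did not pass the test, and a single library carried much of their spread. In control mice C6 stood at 3612 and 4244 when fasted, 3097 and 3942 after sucrose, and 10779 and 3612 after fructose. It was 2612 and 3093, 2815 and 2277, and 2567 and 3520 in the libraries labelled MED13-LKO. C6 differed by −0.66 (SE 0.227, limma adjusted p = 0.0585). Without the first control fructose library C6 differed by −0.40. Without the second it differed by −0.92, but that fit leaves the high first library alone in its group. With equal sums C6 differed by −0.34 (adjusted p = 0.189). C9 was 14485 in the first control fructose library and 7535 to 9750 in the other control libraries, and differed by −0.24 (adjusted p = 0.224). Without the second control fructose library it differed by −0.40, again with the high first library alone in its group. The first control fructose library was also the highest control library for C8a and C8b, at 1.79 and 1.94 times the median of the other control libraries. It had 2.98 times that median for C6 and 1.87 times for C9. C8g, with 5424 there and 4997 to 6000 in the other control libraries, did not share this. On the opposite side it was the lowest control library for C3, Mbl2, Serpinc1, F2 and Masp1.

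**Figure D3:**
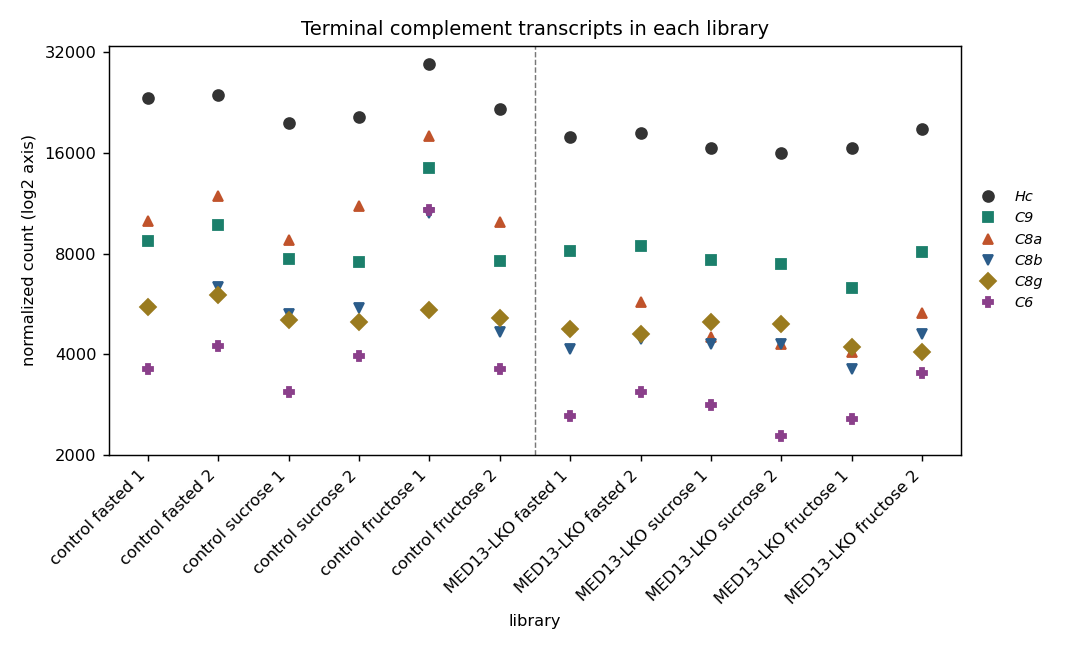
Normalized counts (log2 axis) of 6 genes of the terminal complement pathway in each of the 12 libraries, with control on the left of the dashed line and libraries labelled MED13-LKO on the right. In the first control fructose library C6, C8a, C8b, C9 and Hc all peak, while C8g does not.

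C6 is also one of 13 measured genes of a list with sex-dependent expression in mouse liver, and of the 12 others 5 (41.7%) were higher in the first control fructose library than in any other control library, as were 18.2% of all genes tested. A1bg, at 2 against 0 to 1, is among the 5. Mup20, a male-biased urinary protein, was 242517 there and 102041 to 187521 in the others, and Hsd3b5, a male-biased steroid enzyme, was 4518 against 820 to 2394. Between genotypes, 4 genes of the list rose and 3 fell, where 12.1% of all genes tested rose and 13.2% fell. The largest differences were in the female-biased Cyp2a4 (7.78, log2) and the male-biased Hsd3b5 (−5.24). Transcripts of 4 Y-linked genes were present in all 12 libraries, Ddx3y for instance at 1450 to 1865. The part of these patterns in the complement values was not tested. Without the first control fructose library C8a fell by 1.11 and C8b by 0.33 between genotypes, and both passed the test.

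Within single diets the direction was mostly the same, with fewer calls. In fasted mice 12 members fell and 2 rose, where 4.86% and 4.12% of all genes did. With sucrose 9 fell and 1 rose (against 3.33% and 2.7%), and with fructose 15 fell and 1 rose (against 3.95% and 3.74%). In all 3 diets 32 members had a value below 0 and 4 had one above it, C2, F12, F13b and Pros1. C1s1, C4bp, C8a, Kng1, Plg, Serpinc1 and Serpinf2 fell in each diet, and Pros1 rose in each. With equal sums C4bp and C8a alone among these 7 fell in each diet, and Pros1 rose in each. Leaving out 1 library leaves a group with a single library, so a call lost there may show lost precision and not the weight of that library. When each of the 4 libraries of a diet was left out in turn, C8a passed the test in 0 of 4 fits in fasted mice, 0 of 4 with sucrose and 4 of 4 with fructose, and C4bp in 4, 3 and 4. Pros1 passed it in 2, 3 and 2 of 4, Serpinc1 in 0 of 4 in fasted mice and Serpinf2 in 0 of 4 with sucrose. Without single libraries the number that fell was as low as 4 in fasted mice, 1 with sucrose and 6 with fructose. The spread behind these calls was estimated over all 6 groups. When each diet was fitted alone, 14 members fell and 1 rose in fasted mice, 5 fell and 1 rose with sucrose, and none passed the test with fructose. With equal sums 5 members fell and 6 rose in fasted mice (1.88% and 31.7% of all genes), 4 fell and 5 rose with sucrose (1.37% and 16.8%), and 5 fell and 5 rose with fructose (1.84% and 26.2%).

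**Figure D4:**
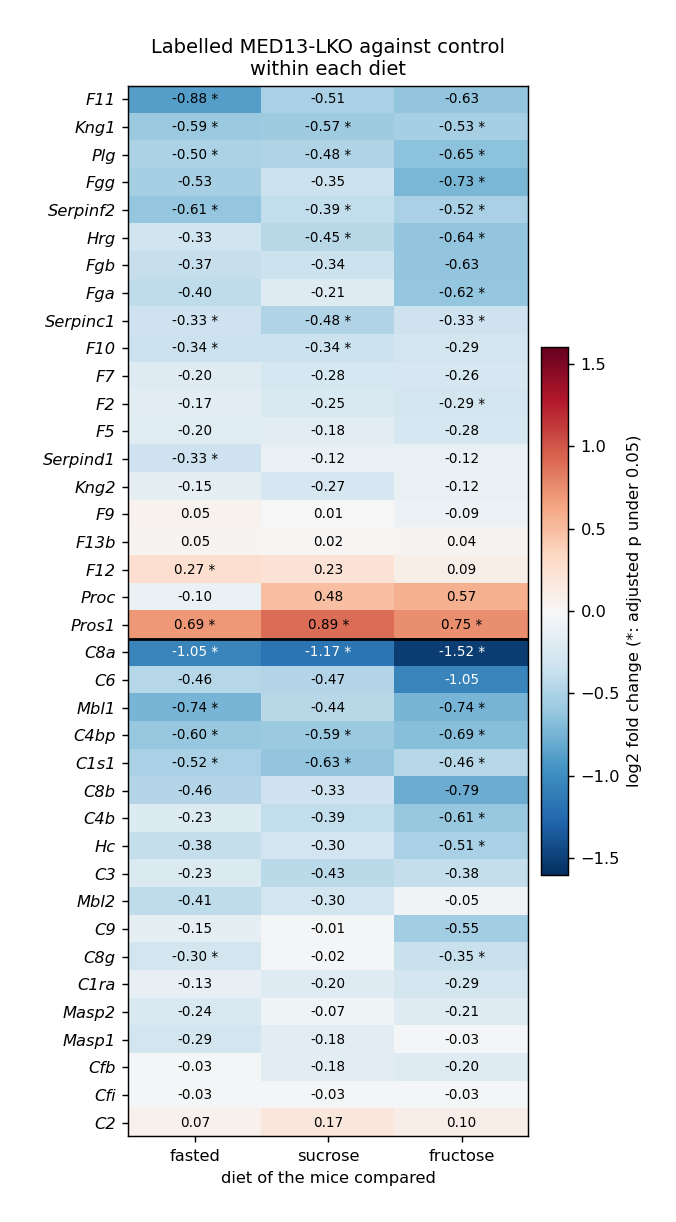
Rows are the 38 members (coagulation above the black line, complement below it), columns are the diets, and color and number give the log2 fold change between libraries labelled MED13-LKO and control (2 against 2). An asterisk marks a limma adjusted p under 0.05. The sign is alike across the diets for most rows, and C8a and Pros1 are the extremes.

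Few members passed the test for refeeding with sugar, 3 of 38 in control mice and 5 of 38 in libraries labelled MED13-LKO. On the deposited scale all of them were coagulation members, and no complement member passed. The count in control mice was not far above the share of all genes. In control mice Serpinf2 (−0.31), Plg (−0.28) and Kng2 (−0.25) fell against the fasted state (mean of both sugars, log2, limma adjusted p = 0.0276, 0.028 and 0.0419), where 4.99% of all genes fell. In libraries labelled MED13-LKO Hrg (−0.38), Plg (−0.35), F9 (−0.30), Kng2 (−0.29) and F12 (−0.26) fell (adjusted p = 0.0208, 0.0132, 0.0234, 0.0246 and 0.0321), where 5.42% of all genes fell. None rose in either genotype. Kng2 values in control mice were 6485 and 6399 when fasted, 5615 and 5572 after sucrose, and 5416 and 5125 after fructose. The libraries labelled MED13-LKO had Kng2 values of 5521 and 6088, 4421 and 4865, and 4818 and 4866. In each genotype the fasted pair lay above all refed libraries. F9 values in libraries labelled MED13-LKO were 6613 and 6696, 5420 and 5629, and 5394 and 5261 in that order. In control mice F9 was 6389 and 6441, 5132 and 5897, and 5759 and 5615, so that the fasted pair was the highest in both genotypes, although F9 did not pass the test in control (−0.20).

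Of the 20 coagulation genes 19 had a value below 0 in each genotype, with medians of −0.21 in control and −0.20 in the others, against −0.01 and 0.00 for all genes. The medians of the complement genes were −0.04 and −0.06. These calls depended on the scale and on single libraries. With equal sums none of the members fell in control mice and C4bp and Cfb rose (0.22 and 0.25, adjusted p = 0.0493 and 0.0303), and Plg alone fell in libraries labelled MED13-LKO (−0.26, adjusted p = 0.0305). Without the first control fructose library 6 members fell in control mice, Fgb, Pros1, Fgg, Kng1, Plg and Kng2.

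**Figure D5:**
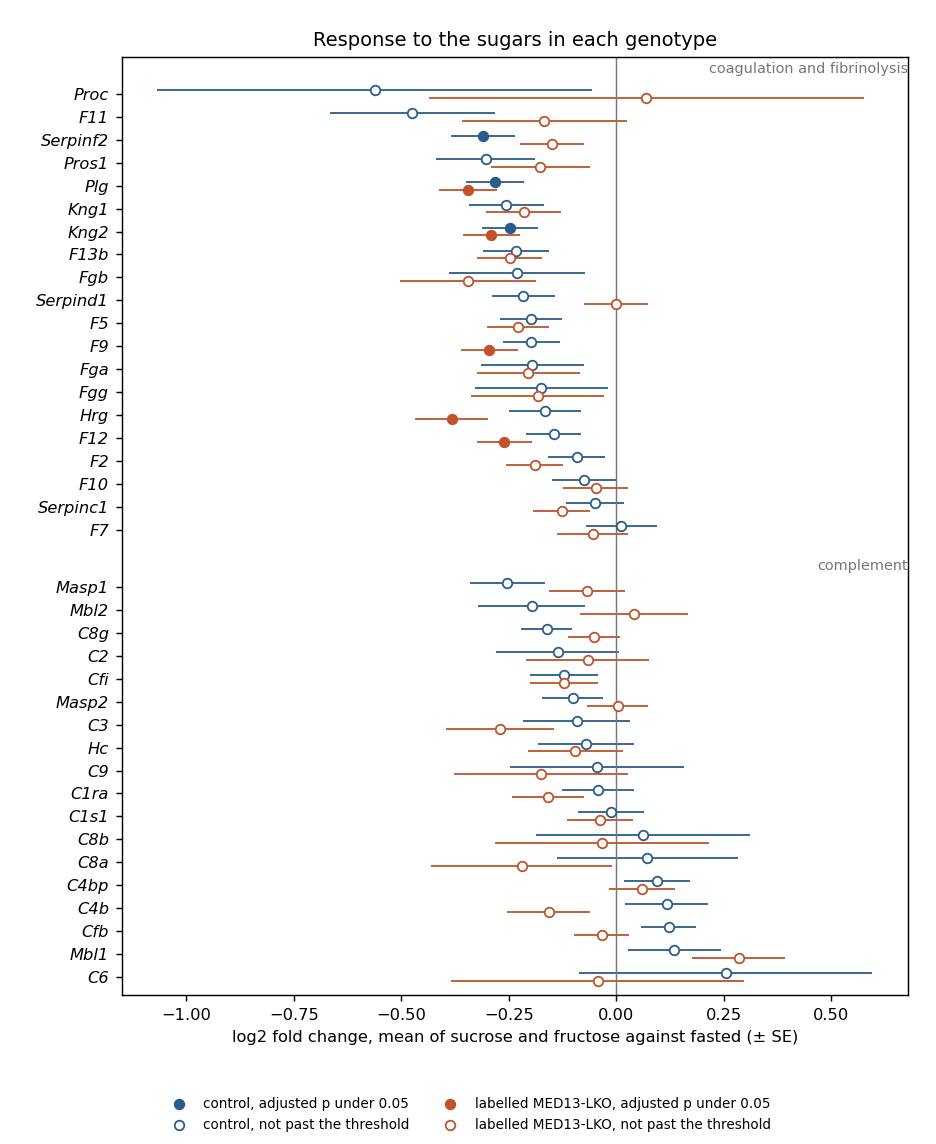
Each row is a member, and the horizontal axis is the log2 fold change of refed (mean of sucrose and fructose, 4 libraries) against fasted (2 libraries) within control (blue) and within libraries labelled MED13-LKO (red), with standard errors. Filled points have a limma adjusted p under 0.05, and the coagulation genes lie mostly left of 0 in both colors.

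The genotypes did not differ detectably in these responses. No member passed the limma test of the interaction of genotype and feeding, none had an unadjusted p under 0.05, and 0.0404% of all genes passed. The same share of all genes differed between fructose and sucrose (averaged over genotypes), and no member did. C4b (0.25, higher with fructose) and Hc (0.23) had an unadjusted p under 0.05 there, and their adjusted p was 0.393 and 0.478. The members' interaction values ranged from −0.30 for C6 to 0.63 for Proc, the least abundant member, and a test that is not passed with 2 mice per group does not show that the responses were alike.

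Other genes of these pathways did not move as a block. On the deposited scale 13.2% of all genes tested fell between genotypes and 12.1% rose. With lists this short, counts near those shares say little about a list. Of 13 further coagulation and fibrinolysis genes tested, 4 fell and 1 rose between genotypes, where Serpina10, the partner of protein Z in the inhibition of factor X, fell by 0.51 and Thbd, the thrombin receptor of endothelium, by 0.67. F8 rose by 0.23. With equal sums 2 of these fell and 5 rose, where 3.28% of all genes fell and 57.5% rose. Of 20 further complement genes 4 rose and 2 fell, among them Colec10, a collectin, which rose by 0.62 (SE 0.055, limma adjusted p = 4.26e-05), Cd55 (0.33) and Cfp (0.31). Their median was 0.07, against −0.30 for the listed complement members. With equal sums none fell and 16 rose, beside the same 57.5% of all genes that rose. Vitamin K dependent carboxylation, on which prothrombin, factors VII, IX and X and proteins C and S rely, was represented by 4 genes. Ggcx, the carboxylase, did not pass the test between genotypes (0.21, adjusted p = 0.066), Vkorc1l1 fell by 0.41, and Prrg4, a membrane protein with a domain of this kind, rose by 1.98. With equal sums 3 of the 4 rose, as did 57.5% of all genes, so this count says little about the list.

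Of 14 regulators known to act on genes of this kind in liver, 5 fell between genotypes and 2 rose. Of all genes tested 13.2% fell and 12.1% rose. Cebpb, a mediator of the acute-phase response, fell by 0.57, Foxa2 by 0.49 and the bile acid receptor Nr1h4 by 0.40. Ppargc1a rose by 0.47 and Esrra by 0.38, and Hnf4a (−0.14) did not pass the test. Under equal sums none of the 14 fell and 6 rose, where 3.28% of all genes fell and 57.5% rose. Upon refeeding, Cebpb fell in both genotypes (−1.06 in control, −1.71 in the others), as did Il6ra, the receptor chain for interleukin 6 (−1.38 and −1.62). The part of these regulators in the members' values was not tested.

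Markers of the liver's cell types were counted beside the members. On the deposited scale 13.2% of all genes tested fell between genotypes and 12.1% rose. All 7 measured hepatocyte markers fell between genotypes, with a median of −0.45, and their summed normalized count was 2362997 to 3035183 in control and 1755155 to 2106757 in libraries labelled MED13-LKO. With equal sums 3 of the 7 fell, where 3.28% of all genes did. Of 8 Kupffer cell markers 2 rose, Marco (1.22) and Cd5l (0.63), and the sums were 3680 to 5062 in control and 4782 to 6319 in the others. Of 8 markers of sinusoidal endothelium 4 rose, with sums of 4874 to 5527 and 5296 to 7166. With equal sums all 8 of the Kupffer cell markers and all 8 of the endothelial markers rose, where 57.5% of all genes did. Stellate cell markers (1 of 8 rose and 2 fell) had sums of 7432 to 8979 and 7462 to 9073, and 1 of 4 cholangiocyte markers tested fell, with sums of 669 to 878 and 534 to 851 and Cftr at 0 in some library. On equal sums 5 of the stellate and 1 of the cholangiocyte markers rose, beside the same share of all genes. Markers of lymphocytes and neutrophils summed to 26 to 50 in control and 50 to 117 in the others, and Cd79a, Nkg7 and S100a9 were among those at 0 in some library. The part of cell composition in the members' differences was not tested, and in whole liver fewer hepatocytes and less RNA per hepatocyte cannot be told apart.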

How the data were processed

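Liver RNA from 12 mice was sequenced as paired reads. Per the submitters' processing notes and the methods, the authors trimmed reads with Trim Galore 0.6.5, estimated transcript counts with kallisto 0.46.0 and normalized them with DESeq2 1.24.0 (build mm10; the transcript reference is not given in the sources used here). The deposited signal values are these normalized counts for 16346 genes, of which 16212 identifiers matched a symbol in GENCODE M21. Low values were whole multiples of a step (tolerance 0.02) for 37.6% to 54.0% of values per library over all genes and 65.9% to 95.8% in genes with a single transcript, so reads were not recovered and no count test was run.

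The logarithm log2(normalized count + 1) of 12366 genes with a mean of at least 10 was fitted in limma 3.58.1 (R 4.3.3), with 6 group means over all 12 libraries, empirical Bayes with trend and Benjamini-Hochberg adjustment over all genes tested. Fold changes on this scale understate changes of low genes. The members, lists, motifs and tests were chosen with earlier results of these data known. Given in every library were the 12 called members with the largest difference between genotypes, those called for the sugars, the fibrinogen chains and C3; of other lists, the called genes with the largest changes. A few listed genes and 1 motif are left out here. Alternatives were pseudocounts of 0.1 and 10, no filter, equal 75th percentiles, equal sums, a replicate block, fits of compared groups, leaving out each library and leaving out the 10 members that share at least 10% of their 31-base subsequences with another gene. Each library is 1 mouse, and p-values measure the spread between 2 mice per group. Libraries with the same replicate number in their sample titles correlated by −0.14 to 0.08 in their deviations, so the numbers were not taken as pairs. The column names of the deposited values number the refed libraries otherwise. Pairs of fasted and refed libraries by those names were not examined. Sequences are from RefSeq (GRCm38.p6), and figures used Python 3.11.15 and matplotlib 3.10.9.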

Additional observations from a re-analysis of the deposited data

Results flagged for a closer look

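In each member the 6 libraries of each genotype, with diets mixed, were searched for a highest or lowest value set apart from the others by a share of the whole range above Dixon's 95% limit for 6 values. Chance alone flags about 1 in 20 such groups, and 6 of the 76 searched were found. In 4 of these the first control fructose library was far above the others, with a C6 value of 10779 (next 4244), a C8a value of 17964 (next 11938), a C8b value of 10617 (next 6356) and a C9 value of 14485 (next 9750). The others were the second fasted library labelled MED13-LKO, whose Cfb value of 25648 was above the next of 24648, and the first sucrose library labelled MED13-LKO, whose Serpind1 value of 6569 was below the next of 6839. No cause was tested for any of them.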

How the results depend on the processing

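Pseudocounts, the filter and equal 75th percentiles moved few calls between genotypes. Equal sums changed most of them. With equal sums 9 members fell and 10 rose between genotypes averaged over diets, 5 and 6 in fasted mice, 4 and 5 after sucrose and 5 and 5 after fructose, while for the sugars 0 fell and 2 rose in control and 1 fell in libraries labelled MED13-LKO. On that scale values turned positive for F2 (0.078), F5 (0.10), F7 (0.067), F9 (0.305), Kng2 (0.14), Serpind1 (0.13), C1ra (0.11), C8g (0.093), C9 (0.076), Cfb (0.18), Cfi (0.29), Masp1 (0.15), Masp2 (0.14) and Mbl2 (0.064). F9, near 0 throughout, was also positive with equal 75th percentiles (0.009) and without the second control sucrose library (0.022, the range over single libraries left out being −0.045 to 0.022), and Cfi without the first fructose library labelled MED13-LKO (0.010, range −0.063 to 0.010). Fits of only the compared groups gave 14 lower and 1 higher fasted, 5 lower and 1 higher with sucrose, 0 lower and 0 higher with fructose, and 0 for the sugars in control. The count higher in fasted mice was also 1 with no filter. Members sharing under 10% of their subsequences gave 5 lower with sucrose, 1 for the sugars in control and 3 in libraries labelled MED13-LKO. With equal 75th percentiles 3 members fell there for the sugars.

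The replicate numbers are not known to pair the mice. With the number as a block 26 members fell and 2 rose between genotypes, and 1 rose fasted. With the numbers of the control fructose libraries crossed, chosen after seeing the data, 14 fell and 1 rose with fructose, against 13 that fell under the uncrossed block.

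Leaving out single libraries gave 22 to 29 members lower and 2 to 3 higher between genotypes averaged over diets, 4 to 7 lower and 0 to 1 higher in fasted mice, 1 to 5 and 0 to 1 after sucrose, and 6 to 19 and 0 to 1 after fructose. For the sugars it gave 0 to 6 lower and 0 to 1 higher in control, and 0 to 4 lower and 0 higher in libraries labelled MED13-LKO. Calls between genotypes were lost most often for Cfb (11 of 12 libraries left out), C8b (10), Mbl2 (10), C1ra (5), Masp2 (4) and Serpind1 (2). Values of some members not called also moved when 1 library was left out, which leaves 1 library in its group. Without the first control fructose library C6 differed by −0.40 and C2 by 0.22. Without the second, with the high first library alone in its group, C6 differed by −0.92 and C9 by −0.40. Masp1 differed by −0.21 without the first fasted library labelled MED13-LKO and by −0.20 without the second control sucrose library. With 2 mice per group and no read depth, small differences could not be resolved.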
